A study of Homo sapiens with 6 samples.

Results

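The KO minus control difference was estimated across genes in all 6 libraries of the series, with each library first placed in a set by its own DAPK3 RNA level. SUM159 cells are a long-established human line from a triple-negative breast tumour with mesenchymal features. DAPK3, also called ZIP kinase, belongs to the death-associated protein kinases, which act on serine and threonine residues and are known for roles in cell death and myosin contraction. The 3 libraries labelled control carry the genotype DAPK3 WT, and the 3 labelled KO came from the DAPK3 knockout line numbered 3, so a property of that line cannot be told apart from the knockout. Every culture had Ham's medium with serum at 5%, HEPES, insulin and hydrocortisone, and polyA RNA was sequenced. The sets were chosen by a measured value, the DAPK3 level in CPM (counts scaled to a common library size), where above 20 made a high set and below 15 a low set. Control R1 and control R3, at 26.1 and 25.9 CPM of DAPK3, form the DAPK3 RNA-high set with the library labelled KO R2, at 27.0. Control R2 at 10.6 CPM, KO R1 at 13.1 and KO R3 at 11.3 form the DAPK3 RNA-low set. DAPK3 RNA therefore went against the label in the library numbered 2 of each label, and control and KO below mean the labels only. The files do not show whether these 2 libraries were exchanged. If they were, each set would hold a single label, and the label term would set R2 against R1 and R3 inside a label, in opposite order in the sets, with no knockout difference in it. No cutoff had to separate neighbouring values, since the nearest libraries on either side of the gap were at 13.1 and 25.9 CPM.

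Each set holds both labels, 2 control libraries with 1 KO library in the high set and 1 control library with 2 KO libraries in the low set. A model with the set and the label as additive terms gives 1 KO minus control value per gene, which averages the difference seen inside the high set and the difference seen inside the low set. The 2 within-set differences share no library. The lone library of its label in each set is the one numbered R2, so within a set the label cannot be told apart from a property of that library. An exact permutation of labels within the sets has a smallest one-sided p of 0.111, so single genes were tested only with edgeR's quasi-likelihood model across all 14613 genes that passed its low-count filter. The labels do not state that replicates are separate cultures, and a p-value here covers only the variation among these 6 libraries, part or all of which may be technical.

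Totals ran from 16312184 expected counts in KO R2 to 22970823 in KO R3, and the TMM scaling factors from 0.991 to 1.009. Mitochondrial transcripts took 4.52% to 5.89% of counts in 5 libraries and 7.35% in control R3. VIM, an intermediate filament of mesenchymal cells, stood between 1423 and 3573 CPM. Of the other mesenchymal markers, CD44 was at 303 to 524 CPM and ZEB1 at 41.4 to 92.6. FN1 differed by set, at 3797 to 4252 CPM in the high set and 425 to 516 in the low set. ESR1 stayed between 0.18 and 0.48 CPM and PGR at 0, while ERBB2 was at 52.1 to 96.9 CPM. GATA3 was at 3.72 to 10.3 CPM and FOXA1 at 0.86 to 2.80. Summed markers of other cell types differed between the sets more than between the labels. Blood and immune markers summed to 14.39 to 61.58 CPM in control and 13.27 to 61.44 in KO libraries, endothelial and stromal markers to 300.5 to 806.1 and 252.2 to 712.8, and neural and liver markers to 30.09 to 151.5 and 23.04 to 157.6. Under 1 CPM in every library were 13, 6 and 10 of their table rows. Of their defining genes CDH5 was at 0 in every library, and CD3E, VWF, ALB and APOA1 were at or near 0. PTPRC was at 2.89 to 3.25 CPM in the high set and at 0 to 0.11 in the low set, DCN at 4.09 to 13.4 CPM, PECAM1 at 0.44 to 1.80 and CD14 at up to 1.23. The part of these markers in the results was not tested.

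Genes of the cell cycle are transcribed in waves. E2F factors switch on the DNA replication genes as cells enter S phase, and NF-Y, which binds CCAAT boxes, and the DREAM and MuvB complexes time the mitotic genes. HSF1 drives cytosolic chaperones, SREBP2 drives cholesterol synthesis, NRF2 drives detoxifying enzymes, and ATF4 answers amino acid and endoplasmic reticulum stress. Genes of these programmes are among those with the smallest p here, so the promoters of 3 of the lowest cell cycle genes are shown, as the 250 bases before the RefSeq start on GRCh38.p14, each on its gene's own strand. Capitals mark the letters TTTCCCGC or TTTGGCGC of an E2F site and the CCAAT box, on either strand.
PCNA, chr20:5126623-5126872, minus strand: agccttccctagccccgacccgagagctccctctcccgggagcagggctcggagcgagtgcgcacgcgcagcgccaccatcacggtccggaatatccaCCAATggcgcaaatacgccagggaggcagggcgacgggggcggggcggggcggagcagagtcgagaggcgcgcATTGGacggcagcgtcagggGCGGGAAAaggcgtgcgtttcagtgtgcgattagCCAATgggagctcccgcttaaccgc
MCM6, chr2:135876444-135876693, minus strand: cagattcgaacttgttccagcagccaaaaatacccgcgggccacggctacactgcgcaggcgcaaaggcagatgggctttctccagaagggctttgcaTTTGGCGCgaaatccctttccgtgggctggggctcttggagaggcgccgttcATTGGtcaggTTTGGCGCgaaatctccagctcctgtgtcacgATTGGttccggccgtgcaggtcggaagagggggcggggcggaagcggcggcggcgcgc
KIF20A, chr5:138178862-138179111, plus strand: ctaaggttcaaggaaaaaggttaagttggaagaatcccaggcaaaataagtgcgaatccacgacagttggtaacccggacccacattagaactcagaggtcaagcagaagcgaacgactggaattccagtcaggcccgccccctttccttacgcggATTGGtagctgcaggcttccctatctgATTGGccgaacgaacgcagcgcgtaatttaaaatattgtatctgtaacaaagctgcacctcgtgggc
PCNA and MCM6, both replication genes, carry E2F letters beside CCAAT boxes, and KIF20A, a mitotic kinesin, carries CCAAT boxes without these E2F letters. The GENCODE coordinates used below start KIF20A at 138178719, before its RefSeq start, so its printed window lies inside the gene by those coordinates. In windows that add 50 bases after the start, one or the other E2F form was found in 23 of 52 S phase promoters (44.23%), in 4 of 63 G2 and M phase promoters (6.349%) and in 2.311% of all 27305 promoters. CCAAT was found in 59.62%, 71.43% and 35.7% of them. High CCAAT shares were not particular to these 2 lists. The share was 70.21% for ATF4 and unfolded protein response genes, 58.97% for cholesterol and fatty acid synthesis genes and 86.36% for replication-dependent histones. It was lower, at 24.32%, for cytosolic heat shock and HSP90 genes. A match describes the letters only.

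With the set in the model, edgeR called 0 of 14613 genes (0%) at a Benjamini-Hochberg adjusted p under 0.05, and the smallest adjusted p was 0.135. At an unadjusted p under 0.05 it counted 1127 genes higher (7.71%) and 1091 genes lower (7.47%) in KO, 50.8% of them higher. Upper-quartile scaling, which moved the median of all genes to -0.04 on the log2 scale, gave 835 higher and 1420 lower, 37.0% higher. DESeq2 with the same design called 220 genes higher (1.91%) and 242 lower (2.11%) among 11496 genes with an adjusted p, and all 462 were among the genes under an unadjusted 0.05 in edgeR. The labels were apart within both sets in the same direction for 2642 genes with KO higher (18.1%) and 2771 with KO lower (19%). If labels were exchangeable inside the sets, the rate for 1 direction would be 0.111, so such separation of a single gene is not rare. All 3 KO libraries lay above all 3 controls for 964 genes (6.6%) and below them for 1020 (6.98%). A label term describes the difference within the sets and does not mean that the labels were apart over all libraries. Since edgeR called no gene, the values below are differences and not calls, and an adjusted p is 0.135 by edgeR's quasi-likelihood test with Benjamini-Hochberg adjustment unless another is given. For genes named after their values were seen, as listed with the methods, it ran from 0.135 (POLE2 and others) to 0.266 (CDKN1A). The edgeR counts rest most on KO R2, the library with the fewest counts and the only KO library of its set. Without it 257 genes were higher and 344 lower at an unadjusted p under 0.05, and the smallest adjusted p was 0.915. Leaving it out leaves the low set as the source of the label term, and the low-set value is given below beside genes for which it is smaller than the label term by more than 1.5 times.

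AKR1C3, KLF5, PCNA and HSP90AA1 were named with the proposal of this comparison, which was written with earlier results of these data known, so their values are a description. AKR1C3 (chr10:5035354-5107686), an aldo-keto reductase that acts on steroids and prostaglandins, had 46.7 and 44.8 CPM in controls R1 and R3 against 21.9 in KO R2. In the low set it stood at 37.3 CPM in control R2 against 20.1 and 22.01 in KO R1 and R3. All 3 KO libraries were below all 3 controls, and the label term was -0.94 on the log2 scale (SE 0.12), with -1.06 in the high set and -0.82 in the low set. A second row of the table carries the AKR1C3 symbol under another identifier, and its label term was -0.70 (SE 0.17; edgeR adjusted p 0.152). The rows summed to 82.6, 84.3 and 66.8 CPM in control R1, R3 and R2 and to 41.5, 44.1 and 40.2 in KO R2, R1 and R3.

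KLF5 (chr13:73054976-73077542), a zinc-finger transcription factor of epithelial proliferation, differed the other way. It was at 39.4 and 35.6 CPM in controls R1 and R3 against 68.5 in KO R2, and at 39.7 in control R2 against 62.8 and 62.6 in KO R1 and R3. Controls of both sets were alike in level, and every KO library lay well above them. The label term was 0.77 (SE 0.11), with 0.88 in the high set and 0.67 in the low set.

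PCNA (chr20:5114953-5126626), the sliding clamp of the replication fork, was at 126 and 129 CPM in controls R1 and R3 against 50.9 in KO R2. In the low set control R2 was at 91.3 CPM against 56.6 and 62.3 in KO R1 and R3. The labels did not overlap, but the difference was larger in the high set (-1.32) than in the low set (-0.61), around a label term of -0.96 (SE 0.16). HSP90AA1 (chr14:102080738-102139699), the inducible cytosolic HSP90 chaperone, varied most of the 4 among the controls, at 2942 CPM in R1, 1755 in R3 and 1666 in R2. The KO libraries were at 803, 635 and 842 CPM in R2, R1 and R3, all below the lowest control. Its label term was -1.35 (SE 0.22), with -1.54 in the high set and -1.17 in the low set.

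**Figure D1:**
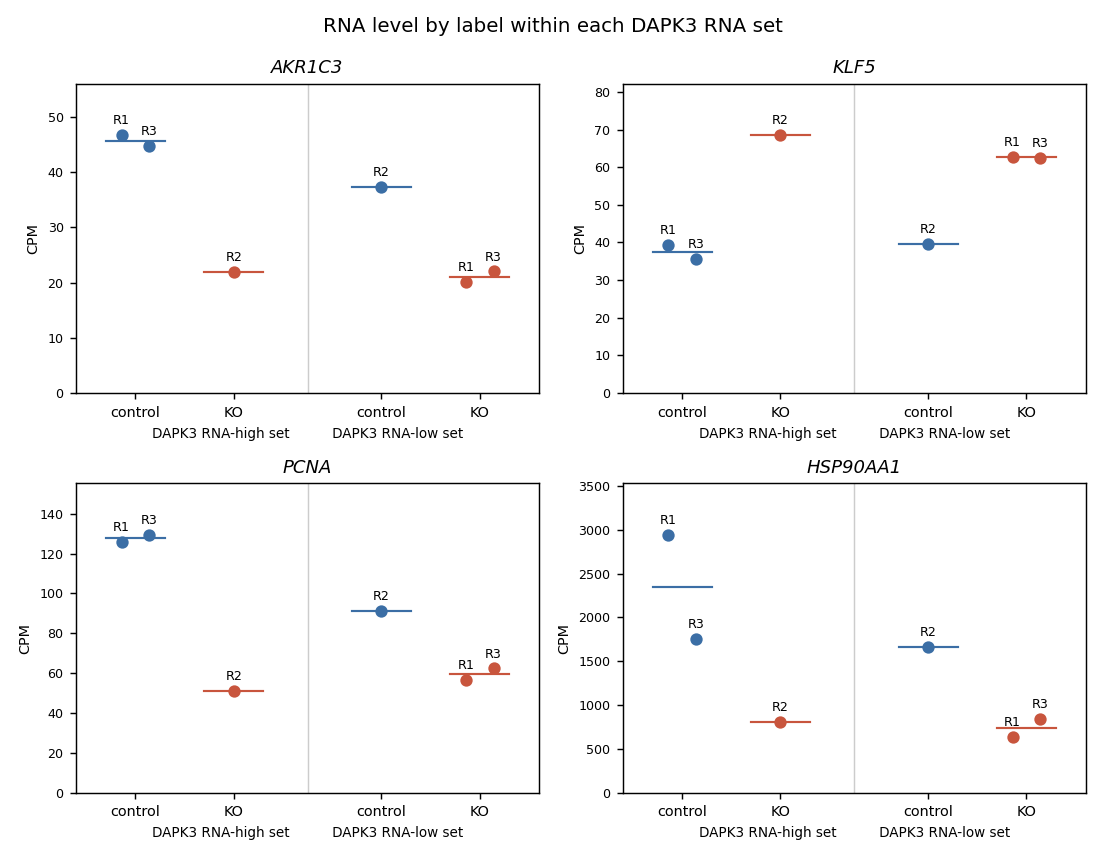
RNA level (CPM, linear axis from 0) of AKR1C3, KLF5, PCNA and HSP90AA1, with 1 point per library and a line at the mean of each label, and with the DAPK3 RNA-high set left of the grey line and the DAPK3 RNA-low set right of it. KLF5 in KO sits between 62.6 and 68.5 CPM, above controls at 35.6 to 39.7, and AKR1C3 in KO between 20.1 and 22.01 CPM, below controls at 37.3 to 46.7.

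The S phase and DNA replication list gave the lowest median of the lists described here. Of its 65 genes, 43 were lower at an unadjusted p under 0.05 and 0 higher, DESeq2 called 22 lower, and in 39 all KO libraries lay below all controls. Over all genes, 7.47% were lower and 7.71% higher at that threshold, DESeq2 called 2.11% lower, and in 6.98% all KO libraries lay below all controls. Counts of the lists below are to be read against the same shares. The median label term of the S phase list was -0.45, against 0.00 over all genes tested. It was -0.52 in the high set and -0.41 in the low set, and 64 of 65 genes had a negative label term. With each gene centred on the mean of its set, the list median was 0.29 in control R2, -0.33 in KO R1 and 0.05 in KO R3. The KO libraries of the low set thus differed from each other by about as much as the labels did. Summed over the list, the high set held 5613 and 5009 CPM in controls R1 and R3 against 3624 in KO R2, and the low set 4462 in control R2 against 2892 and 3813 in KO R1 and R3. MCM6 (chr2:135839626-135876426), a subunit of the MCM helicase whose promoter is printed above, was at 131 and 106 CPM in controls R1 and R3 against 47.96 in KO R2, and at 57.3 in control R2 against 22.9 and 34.9 in KO R1 and R3. Its label term was -1.14 (SE 0.18), and the labels were apart in the whole series. Other helicase subunits had values of the same sign, with MCM2 at -0.69 (SE 0.12), MCM3 at -0.74 (SE 0.14) and MCM4 at -0.83 (SE 0.16), which was -0.48 in the low set. POLE2, a subunit of DNA polymerase epsilon, was at -1.03 (SE 0.17) and CLSPN, an adaptor of the replication checkpoint, at -0.89 (SE 0.16).

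In the G2 and M phase list, 37 of 73 genes were lower and 0 higher at an unadjusted p under 0.05, and DESeq2 called 14 lower. The median was -0.32, with -0.38 in the high set and -0.31 in the low set. With each gene centred on the mean of its set, the list median was 0.21 in control R2, -0.28 in KO R1 and 0.07 in KO R3. Here too the KO libraries of the low set differed from each other by about as much as the labels did. KIF20A (chr5:138178719-138187715), the kinesin of the cleavage furrow with the CCAAT boxes shown above, was at 148 and 114 CPM in controls R1 and R3 against 43.3 in KO R2, and at 58.3 in control R2 against 23.7 and 34.2 in KO R1 and R3. The 3 KO libraries were the 3 lowest, with a label term of -1.30 (SE 0.20). DLGAP5 (chr14:55148112-55191678), a spindle microtubule protein, followed the same order with -0.99 (SE 0.16). CDK1, the mitotic cyclin-dependent kinase, was at -0.77 (SE 0.18). Replication-dependent histone genes, whose transcripts mostly lack a polyA tail, had 0 of 13 genes at an unadjusted p under 0.05 in either direction. Their median was -0.33 with the set and 0.27 without it.

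Genes that hold the cell cycle back were mixed. In the list of CDK inhibitors and p53 targets, 6 of 34 genes were higher and 2 lower at an unadjusted p under 0.05, with a median of 0.09 that became -0.03 without KO R2. GADD45A (chr1:67685061-67688338), a stress-induced growth arrest protein, was at 104 and 62.5 CPM in controls R1 and R3 against 248 in KO R2, and at 118 in control R2 against 165 and 190 in KO R1 and R3. Its label term was 1.09 (SE 0.24; edgeR quasi-likelihood adjusted p 0.139), with 1.58 in the high set and 0.60 in the low set. CDKN2C (chr1:50960745-50974633), which encodes the CDK4 and CDK6 inhibitor p18, was lower in KO with -0.96 (SE 0.23; edgeR adjusted p 0.145). CDKN1A, the inhibitor p21, was at 0.38 (SE 0.14), with 0.25 in the low set.

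**Figure D2:**
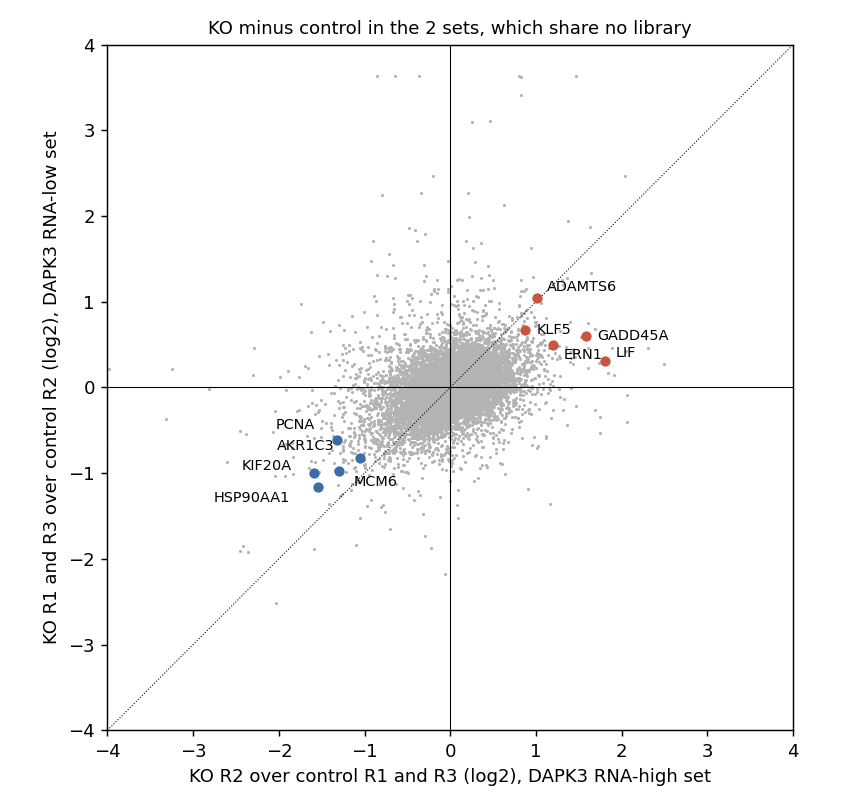
KO minus control log2 difference of the 12283 genes whose mean log2 CPM was 1 or more, in the high set (x axis, KO R2 over control R1 and R3) against the low set (y axis, KO R1 and R3 over control R2). The dotted line marks equal values, 6 genes lie beyond the axis limit of 4, and the named genes lie in the quadrants of equal sign, with LIF and GADD45A further from 0 in the high set than in the low set.

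Since the sets share no library, their differences could be set side by side gene by gene. Across the 12283 genes whose mean log2 CPM was 1 or more, Pearson's r was 0.287 and Spearman's rank correlation 0.372, given as a description because genes are not independent replicates. Over all 14613 genes Pearson's r was 0.121 and Spearman's rank correlation 0.301, and 62.2% of genes had the same sign in both sets. A test of the difference between the sets called 0 genes (0%) in edgeR, with a smallest adjusted p of 0.499 and 426 genes at an unadjusted p under 0.05 (2.92%). This test sets the libraries numbered R2 against those numbered R1 and R3, and a property of the set cannot be told apart from that.

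Among cholesterol and fatty acid synthesis genes, 19 of 47 were lower and 1 higher at an unadjusted p under 0.05. Their median was -0.25, and in 18 genes all KO libraries lay below all controls. INSIG1, the sterol-responsive anchor of the SREBP pathway, was at -1.25 (SE 0.27), and MSMO1, a sterol demethylation enzyme, at -1.03 (SE 0.29). In the low set these were -0.65 and -0.57. The higher gene was ABCG1 (chr21:42199689-42297244), a cholesterol exporter that LXR factors induce. It was at 45.7 and 53.6 CPM in controls R1 and R3 against 81.8 in KO R2, and at 132 in control R2 against 175 and 171 in KO R1 and R3. The step between the sets was larger than that between the labels, so KO R2 lay below control R2, and the label term within the sets was 0.56 (SE 0.12).

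Chaperone genes were divided. The list of cytosolic heat shock and HSP90 genes also holds mitochondrial members, HSPE1 and HSPA9 among them. Of its 36 genes tested, 11 were lower and 2 higher at an unadjusted p under 0.05, and the median of -0.26 became -0.08 without KO R2. HSPE1 (chr2:197499994-197503457), the mitochondrial co-chaperonin, was at 246 and 202 CPM in controls R1 and R3 against 110.1 in KO R2, and at 171 in control R2 against 131 and 119.8 in KO R1 and R3, a label term of -0.73 (SE 0.16; edgeR adjusted p 0.138) with -0.44 in the low set. STIP1, which links HSP70 to HSP90, was at -0.63 (SE 0.14), and DNAJA1, an HSP70 partner, at -0.84 (SE 0.23), with -0.32 in the low set. HSPA9, the mitochondrial HSP70, and DNAJB2 were the higher genes, at 0.36 (SE 0.10) and 0.48 (SE 0.14), and DNAJB2 was at 0.30 in the low set. The letters GAANNTTC or TTCNNGAA of a heat shock element occurred in 12 of 37 promoters of the list (32.43%) and in 13.69% of all promoters, searched on both strands of the 300-base window. In the chaperonin and prefoldin list, 4 of 14 genes were lower and 1 higher, with a median of -0.10 that became -0.02 without KO R2 and -0.22 without control R2. TCP1 (chr6:159778498-159789749), a chaperonin subunit, was at -0.59 (SE 0.14; edgeR adjusted p 0.154) and PFDN2 (chr1:161100556-161118111), a prefoldin subunit, at 0.56 (SE 0.11).

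Around AKR1C3, the list of AKR1C and NRF2 target genes had 15 of 39 rows lower and 2 higher at an unadjusted p under 0.05, and DESeq2 called 9 lower. The median was -0.25, with -0.33 in the high set and -0.18 in the low set. AKR1C2 (chr10:4987400-5018031), a close relative of AKR1C3 that inactivates dihydrotestosterone, was at 175 and 233 CPM in controls R1 and R3 against 91.3 in KO R2, and at 132 in control R2 against 73.3 and 83.5 in KO R1 and R3. Its label term was -0.95 (SE 0.15), close to that of AKR1C3. AKR1C1 was at -1.29 (SE 0.34), with -0.81 in the low set. These enzymes are so alike in sequence that reads can be divided among them only by estimate. PRDX1, a peroxiredoxin, was at -0.59 (SE 0.12) and CBR1, a carbonyl reductase, at -0.58 (SE 0.12).

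On the higher side, the ATF4 and unfolded protein response list had 17 of 53 genes higher and 4 lower at an unadjusted p under 0.05, and a median of 0.19. STC2 (chr5:173314713-173329503), a secreted glycoprotein induced by ATF4, was at 441 and 353 CPM in controls R1 and R3 against 828 in KO R2, and at 345 in control R2 against 488 and 503 in KO R1 and R3. All KO libraries lay above all controls, and the label term was 0.80 (SE 0.14), with 1.07 in the high set and 0.53 in the low set. ERN1 (chr17:64039142-64130819), the endoplasmic reticulum stress sensor IRE1, was at 0.84 (SE 0.16), with 1.198 in the high set and 0.50 in the low set. TRIB3, a pseudokinase that ATF4 and CHOP induce, was at 0.90 (SE 0.20), with 0.41 in the low set. The lower genes included lumenal chaperones, with CALR, calreticulin, at -0.56 (SE 0.13) and PDIA4, a disulfide isomerase, at -0.39 (SE 0.10).

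Growth factor and immediate early genes showed 14 of 44 higher and 2 lower at an unadjusted p under 0.05, with DESeq2 calling 9 higher and a median of 0.34. AREG (chr4:74445134-74455009), the EGFR ligand amphiregulin, was at 23.4 and 17.5 CPM in controls R1 and R3 against 40.9 in KO R2, and at 102 in control R2 against 150.0 and 186 in KO R1 and R3. As for ABCG1, the sets differed more than the labels, and KO was higher inside each set by 1.00 and 0.73, a label term of 0.86 (SE 0.15). Its neighbour EREG (chr4:74365143-74388751), epiregulin, was at 0.55 (SE 0.10), with KO R2 at 121 CPM below control R2 at 149. FOSL1, the AP-1 subunit FRA-1, was at 0.52 (SE 0.10), and DUSP4, a MAP kinase phosphatase, was lower at -0.71 (SE 0.18). In the KLF and SP factor list, to which KLF5 belongs, 7 of 18 genes were higher and 0 lower, and the median was 0.31 with the set against 0.09 without it. KLF4 (chr9:107484852-107490482), a zinc-finger factor of epithelial differentiation, was at 41.9 and 34.2 CPM in controls R1 and R3 against 72.5 in KO R2, and at 69.7 in control R2 against 99.6 and 90.2 in KO R1 and R3. All KO libraries lay above all controls, though KO R2 and control R2 were close, and the label term was 0.69 (SE 0.14), with 0.93 in the high set and 0.45 in the low set. KLF10, a TGF-beta early response factor, was at 0.84 (SE 0.20).

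Host genes of small nucleolar RNAs, whose spliced transcripts are often short-lived because translation sends them to decay, had 10 of 27 genes higher and 3 lower at an unadjusted p under 0.05, with a median of 0.23 that became 0.13 without control R1. GAS5 (chr1:173863900-173868882) was at 380.2 and 449 CPM in controls R1 and R3 against 756 in KO R2, and at 515 in control R2 against 749 and 731 in KO R1 and R3. All KO libraries lay above all controls, with a label term of 0.70 (SE 0.12). C6orf48 (chr6:31834608-31839766), another host gene, was at 0.74 (SE 0.13), ZFAS1 at 0.85 (SE 0.17) and DANCR at -0.43 (SE 0.10). Ribosome biogenesis and nucleolar genes had 10 of 46 higher and 0 lower, with a median of 0.16 that became 0.09 without KO R2. Among them RRP12 (chr10:97356358-97426076), a pre-ribosome export factor, was at 0.47 (SE 0.10; edgeR adjusted p 0.139) and DKC1 (chrX:154762742-154777689), the pseudouridine synthase dyskerin, at 0.37 (SE 0.11; edgeR adjusted p 0.197), with 0.52 in the high set and 0.22 in the low set. Ribosomal protein genes had 2 of 78 higher and 1 lower and a median of 0.04.

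**Figure D3:**
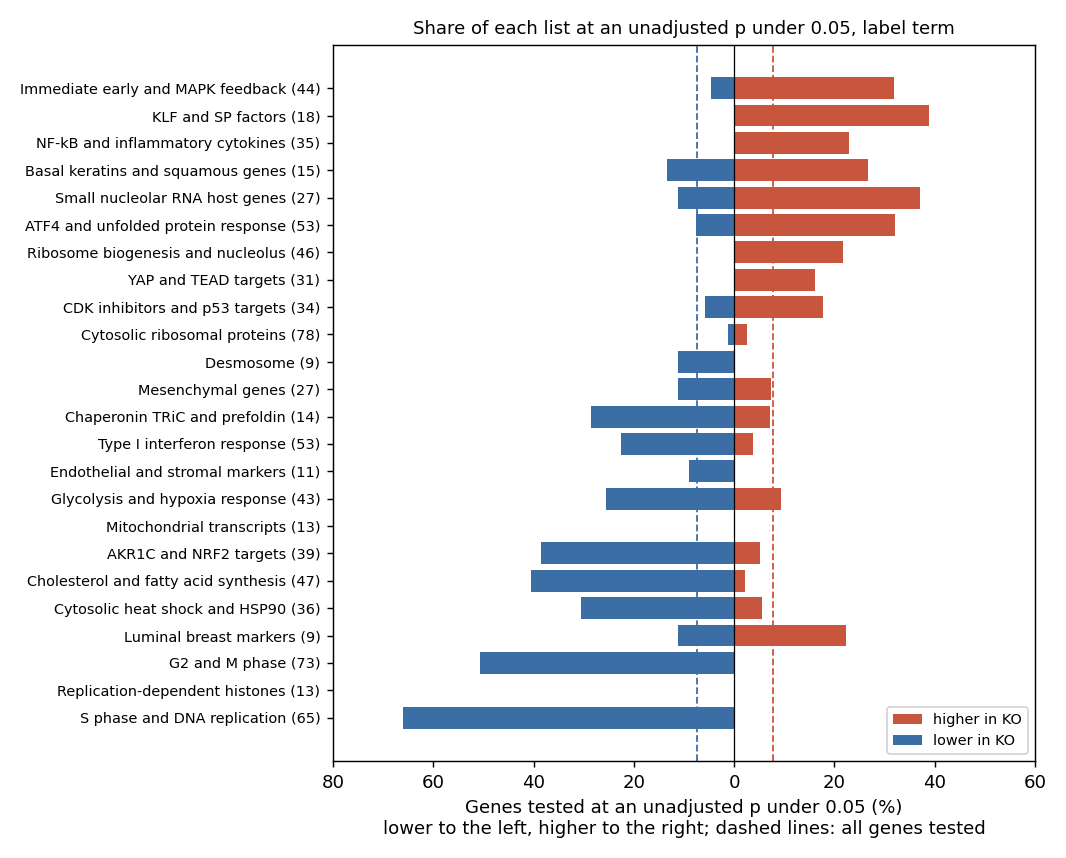
Share of the genes tested in each list (percent, number tested in parentheses) that reached an unadjusted p under 0.05 for the label term, higher in KO to the right and lower to the left, with dashed lines at the shares of all genes tested (7.71% and 7.47%). The S phase list has 43 of 65 genes to the left and 0 to the right, and the KLF and SP list 7 of 18 to the right and 0 to the left.

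The genes with the smallest unadjusted p outside the lists were CREB5, FTH1P10, ADAMTS6, MAP1LC3B, AKAP2 and ST3GAL1 on the higher side and B4GAT1, B4GALNT1, TVP23C-CDRT4 and CXCL12 on the lower side. CREB5 (chr7:28299321-28825894), a CRE-binding transcription factor, was at 58.6 and 49.0 CPM in controls R1 and R3 against 106 in KO R2, and at 39.7 in control R2 against 66.3 and 67.6 in KO R1 and R3. The labels were apart, with a label term of 0.88 (SE 0.11). MAP1LC3B (chr16:87383995-87404779), the autophagosome protein LC3B, was at 0.69 (SE 0.10), ST3GAL1 (chr8:133454848-133571940), a sialyltransferase, at 0.60 (SE 0.10) and AKAP2 (chr9:110048598-110172512), an anchor of protein kinase A, at 0.62 (SE 0.10). The AKAP2 gene overlaps a longer readthrough gene, FTH1P10 is a ferritin heavy chain pseudogene and TVP23C-CDRT4 is a readthrough gene, so their counts are uncertain. FTH1P10 was at 1.32 (SE 0.17) and TVP23C-CDRT4 at -1.77 (SE 0.28).

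B4GAT1 (chr11:66345372-66347692), a glucuronyltransferase of dystroglycan glycosylation, was at 16.5 and 13.3 CPM in controls R1 and R3 against 6.37 in KO R2, and at 16.7 in control R2 against 8.23 and 8.61 in KO R1 and R3, a label term of -1.09 (SE 0.17) with the labels apart. B4GALNT1 (chr12:57623410-57633355), the ganglioside GM2 synthase, was at -0.96 (SE 0.15). CXCL12 (chr10:44370165-44386493), a chemokine, was at 11.5 and 8.63 CPM in controls R1 and R3 against 2.45 in KO R2. In the low set it had 12 expected counts in control R2 and 1 and 3 in KO R1 and R3, so its value rests on the high set, where the difference was -2.03.

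Adding the set narrowed the error of the label term and moved the direction of some genes. The median standard error over all genes tested was 0.157 with the set and 0.229 without it, and the smallest edgeR adjusted p was 0.135 and 0.635. Without the set 1119 genes had an unadjusted p under 0.05 in edgeR. Of these, 1092 were also among the 2218 found with the set, which is 97.59% of the genes without the set and 49.23% of those with it. Of the 2218 genes, 50 had the opposite sign without the set, 34 of them higher in KO with the set and 16 lower. TNC (chr9:115019578-115118257), the matrix glycoprotein tenascin-C, is such a gene. It was at 497 and 484 CPM in controls R1 and R3 against 650.1 in KO R2, and at 54.9 in control R2 against 67.7 and 68.3 in KO R1 and R3. Within each set KO was higher, by 0.41 and 0.32, and the label term was 0.36 (SE 0.09; edgeR adjusted p 0.153), whereas without the set it was -0.40.

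MAP2 (chr2:209424058-209734118), a microtubule-associated protein of neurons, also changed sign. It stood at 100.5 and 80.4 CPM in controls R1 and R3 against 135 in KO R2, and at 8.74 in control R2 against 7.96 and 14.98 in KO R1 and R3. Its label term was 0.51 (SE 0.22; edgeR adjusted p 0.317) with the set, -0.26 without it and 0.32 without KO R3, and in the low set control R2 lay between the KO libraries. ADAMTS6 (chr5:65148736-65481920), a secreted metalloprotease, kept its sign but moved in size. It was at 43.2 and 57.7 CPM in controls R1 and R3 against 101 in KO R2, and at 7.87 in control R2 against 16.03 and 16.2 in KO R1 and R3. The difference was 1.01 in the high set and 1.04 in the low set, a label term of 1.02 (SE 0.14) against 0.29 without the set.

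**Figure D4:**
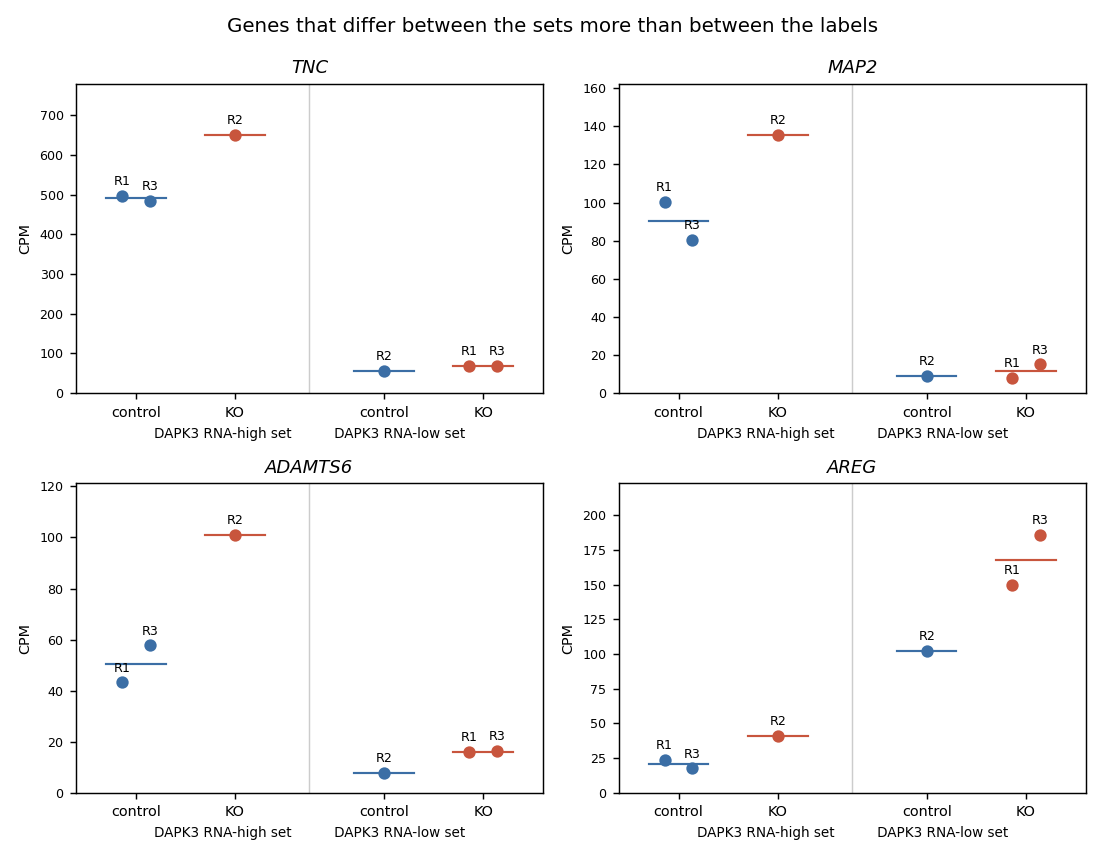
RNA level (CPM, linear axis from 0) of TNC, MAP2, ADAMTS6 and AREG per library, with a line at the mean of each label and the DAPK3 RNA-high set left of the grey line. ADAMTS6 in KO R1 and R3 (16.03 and 16.2 CPM) lies above control R2 (7.87) but below control R1 and R3 (43.2 and 57.7), so the label difference shows inside each set and not over all libraries.

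Genes of cell identity differed mostly between the sets. Mesenchymal genes had 2 of 27 higher and 3 lower at an unadjusted p under 0.05, against 7.71% and 7.47% of all genes tested. Their median was -0.06 with the set against -0.46 without it. MMP2 (chr16:55389700-55506691), a gelatinase, was lower in KO within the sets by -0.50 (SE 0.11; edgeR adjusted p 0.138). Its level in KO R2, 217 CPM, was above that in control R2, 122 CPM. Basal keratin and squamous genes had 4 of 15 higher and 2 lower, and a median of 0.27 with the set against 0.62 without it and 0.03 without the low-count filter. SFN (chr1:26863138-26864457), the epithelial 14-3-3 protein, was at -0.59 (SE 0.12). Of the desmosome genes 0 of 9 were higher and 1 lower, PERP (chr6:138088505-138107511) at -0.47 (SE 0.17; edgeR adjusted p 0.252), and the median was -0.03. YAP and TEAD targets had 5 of 31 higher and 0 lower with a median of 0.09, and DLC1 (chr8:13083361-13604610), a tumour suppressor, was at 0.79 (SE 0.17; edgeR adjusted p 0.139), with 1.05 in the high set and 0.52 in the low set.

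Glycolysis and hypoxia genes had 11 of 43 lower and 4 higher at an unadjusted p under 0.05 and a median of -0.14. Among them CA12 (chr15:63321378-63382161), a carbonic anhydrase, was at -0.65 (SE 0.14; edgeR adjusted p 0.139) and P4HA2 (chr5:132191838-132295315), a collagen prolyl hydroxylase, at -0.52 (SE 0.12; edgeR adjusted p 0.143). Mitochondrial transcripts had 0 of 13 in either direction and a median of -0.15 that became 0.02 without control R3, the library with the highest mitochondrial share. Luminal markers had 2 of 9 higher and 1 lower, ERBB2 (chr17:39687914-39730426), the HER2 receptor, at -0.52 (SE 0.11; edgeR adjusted p 0.139), with -0.70 in the high set and -0.34 in the low set. XBP1 (chr22:28794555-28800597), a higher one, was at 0.48 (SE 0.17; edgeR adjusted p 0.249), with 0.82 in the high set and 0.15 in the low set. Of the other marker lists, blood and immune genes had 0 of 5 in either direction, endothelial and stromal genes 0 of 11 higher and 1 lower, and neural and liver genes 1 of 4 higher and 1 lower. TUBB3 (chr16:89921392-89938761), a tubulin typical of neurons, was the lower one at -0.92 (SE 0.16). Its level in KO R2, 19.4 CPM, was above that in control R2, 14.2 CPM.

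**Figure D5:**
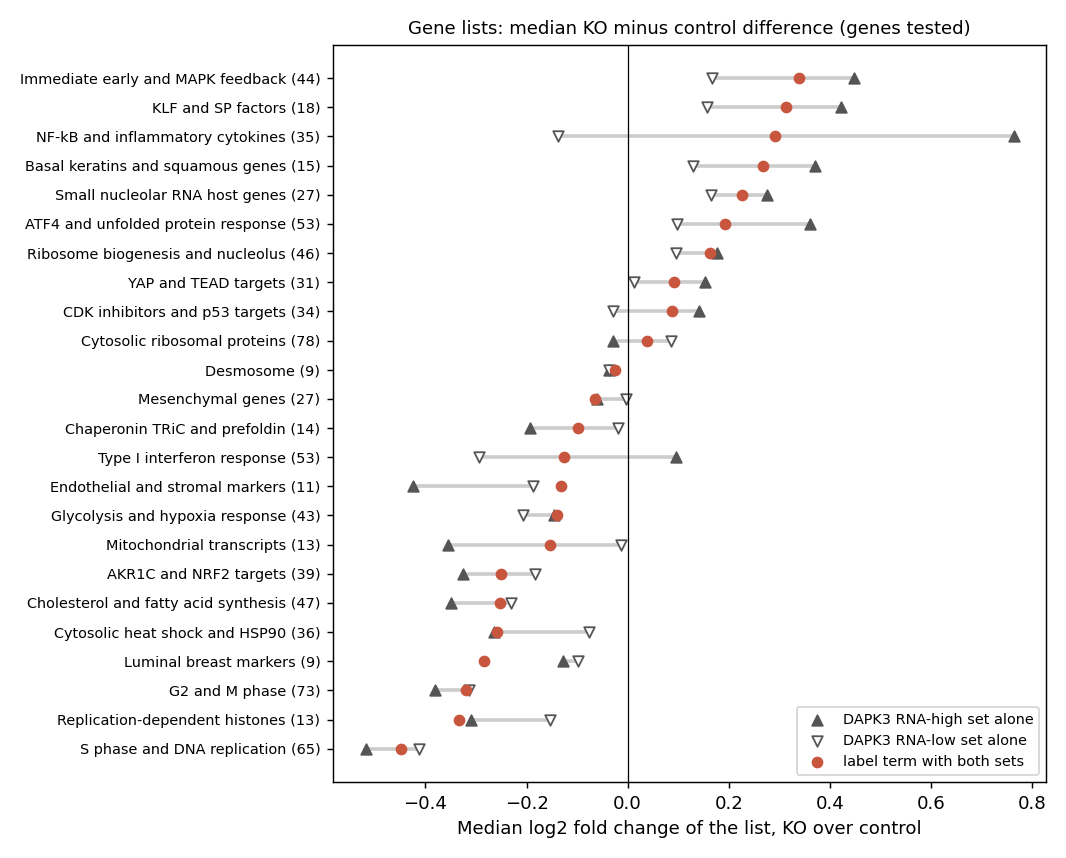
Median KO minus control log2 difference of each list with at least 9 genes tested (number in parentheses), in the high set alone (filled triangle), in the low set alone (open triangle) and as the label term over both sets (red circle). The S phase list is at -0.52 and -0.41 in the sets, and the NF-kB list at 0.76 and -0.14, on either side of 0.

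The inflammatory lists did not keep 1 direction over the sets. NF-kB and inflammatory cytokine genes had 8 of 35 higher and 0 lower at an unadjusted p under 0.05, yet in 0 of 35 did all KO libraries lie above all controls. Their median label term was 0.29, while the median of the within-set differences was 0.76 in the high set and -0.14 in the low set. LIF (chr22:30240447-30246851), an IL-6 family cytokine, was at 10.2 and 7.09 CPM in controls R1 and R3 against 30.01 in KO R2, and at 36.2 in control R2 against 43.2 and 46.1 in KO R1 and R3. The difference was 1.80 in the high set and 0.31 in the low set, a label term of 1.02 (SE 0.29; edgeR adjusted p 0.192). IL32 (chr16:3065297-3082192), another cytokine, was at 0.42 (SE 0.11; edgeR adjusted p 0.171), with 0.58 and 0.26 in the sets. Type I interferon response genes had 12 of 53 lower and 2 higher, and a median of -0.13 that was 0.10 in the high set and -0.29 in the low set. IFITM1 (chr11:313506-315272), a membrane restriction factor, was lower in KO in both sets, at -0.39 and -0.47, with a label term of -0.43 (SE 0.10; edgeR adjusted p 0.145). IFI30 (chr19:18173162-18178117), a lysosomal thiol reductase, was at -0.60 (SE 0.16; edgeR adjusted p 0.178) with the set and 0.03 without it, and the difference was -0.92 in the high set and -0.34 in the low set.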

How the data were processed

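Gene expression was measured by polyA RNA sequencing in 3 libraries labelled control and 3 labelled DAPK3 KO. The authors deposited expected counts per gene for each library, which are estimated and not normalized, with 9.42% to 10.6% of a library's values not whole. The submitters' processing notes name RSEM, Bowtie2 and edgeR, and the build GRCh38. Their versions, the annotation and whether counting used strand are not given in the sources used, so reads of antisense or near-identical genes cannot be told apart with certainty.

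Expected counts were rounded. The label term came from the quasi-likelihood test of edgeR 4.0.16 in R 4.3.3 with TMM factors, filterByExpr on the label and the DAPK3 RNA set as an additive term, with Benjamini-Hochberg adjustment over 14613 genes and calls under 0.05. CPM are rounded counts scaled to TMM-adjusted library sizes. Each SE is the absolute log2 difference divided by the square root of the quasi-likelihood F statistic, so it restates the test and is no separate measure. Within-set and between-set values came from the model with the interaction. The set rests on a measured value, so p-values for the labels are not independent of it. The members, lists and tests were chosen with earlier results of these data known. Lists are described by counts and medians, with no set test.

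Named genes were the given genes, DAPK3, the 8 smallest unadjusted p per direction among genes whose mean log2 CPM was 1 or more (none was called by edgeR) and the 2 smallest p of each list. MCM2, MCM3, MCM4, POLE2, CLSPN, CDK1, CDKN1A, INSIG1, MSMO1, STIP1, DNAJA1, HSPA9, DNAJB2, AKR1C1, PRDX1, CBR1, TRIB3, CALR, PDIA4, FOSL1, DUSP4, KLF10, ZFAS1 and DANCR were named after their values were seen. Some genes that the rule names are not reported here. Coordinates are from GENCODE release 29 on GRCh38, which held 14529 of the 14613 genes tested, and promoters from RefSeq, matched for 40 of 62 named symbols. Alternatives were other scalings, filters, thresholds and models, DESeq2 1.42.0, limma-voom (limma 3.58.1), the replicate number as a block and leaving out each library. Replicate numbers were not treated as pairing the samples, and 0 sample columns were left unmapped.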

Additional observations from a re-analysis of the deposited data

Results flagged for a closer look

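For NF-kB and inflammatory cytokine genes the median KO minus control difference, low set minus high set, was -0.90, with the sets on opposite sides of 0. Centred on its set, the list median was 0.01 in control R1, -0.47 in control R3 and 0.54 in KO R2, and 0.09 in control R2, -0.10 in KO R1 and 0.05 in KO R3. The spread among libraries of 1 label inside a set was therefore of the size of the label difference, and the difference between the sets was not tested for the list. In the type I interferon list the low set minus the high set was -0.39. Its centred medians were 0.03 in control R1, -0.03 in control R3 and 0.06 in KO R2, and 0.22 in control R2, -0.23 in KO R1 and 0.08 in KO R3. This difference was not tested either.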

How the results depend on the processing

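No gene was called by edgeR under RLE, upper-quartile or library-size scaling, a CPM filter, other thresholds or glmTreat. The same held for the model without the set, the replicate block, each set alone and any library left out. Limma-voom was run only with the main design, filter and scaling, and it called no gene. DESeq2 called 462 genes, and edgeR without a count filter called 237 of 27288. The difference between the sets called 2 genes in DESeq2 (HSPA1B and EIF3CL) and 1 without the filter (EIF3CL), named after their values were seen. Genes at an unadjusted p under 0.05, 1127 higher and 1091 lower, became 510 and 609 without the set, 70 and 147 with glmTreat against a 1.5-fold change, and 597 and 650 with the replicate block. With that replicate block the smallest adjusted p was 0.105. For a check of pairing, each gene's mean over its label was subtracted from its log2 CPM. Across genes, these deviations had correlations of -0.65, -0.85 and -0.70 between same-numbered libraries of the 2 labels. Inside the high set, KO R2 had correlations of 0.77 with control R1 and 0.64 with control R3. Inside the low set, control R2 had 0.61 with KO R1 and 0.79 with KO R3. Control R1 with KO R3 and control R3 with KO R1, from opposite sets, had -0.61 and -0.36. The cause of this pattern was not tested. Deviations sum to 0 within a label, so the correlations constrain one another and do not compare whole expression profiles. Each same-numbered pair lies in opposite DAPK3 RNA sets, so this check cannot show whether a number marks a shared batch. The numbers were not taken as pairs. Leaving out each library gave 257 to 1284 higher and 344 to 1354 lower. The lowest counts came without KO R2, and 720 and 689 came without control R1 and 691 higher without KO R3. The cause of these shifts was not tested.

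Without the set, the sign turned for IFI30 (0.029), JUP (0.16), MAP2 (-0.26), PTPRC (-0.84) and TNC (-0.40). HIST1H2AC turned to 0.048 in the high set alone and ranged from -0.82 to 0.025 over libraries left out, and HBB to 0.25 in the low set alone, ranging from -1.12 to 0.24, with 0.19 without control R3. Of 62 gene values compared, DESeq2 called 46 and edgeR without the filter 39. Without KO R2 the list median was -0.14 for NF-kB, 0.09 for ATF4, 0.16 for immediate early and -0.31 for interferon genes, and without control R2 it was 0.74, 0.34, 0.42 and 0.07. Ribosomal proteins were at -0.05 without control R2. Without the set, the cholesterol list was at -0.39, desmosome genes at 0.16, YAP targets at -0.08, luminal markers at -0.07 (-0.28 with it) and endothelial and stromal markers at -0.64 (-0.13 with it), and neural and liver markers were at -0.85 without control R2 (-0.30 with it). At an unadjusted p under 0.05 the high set alone gave 1928 genes and the low set alone 608, each with 1 library of a label.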
